A study of Mus musculus with 14 samples.

Results

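The names described here are the mouse miRNAs numbered 1000 or above, that is, the rows called mmu-miR- followed by a number of at least 1000, without a star, and with at least 1 read summed over the 14 libraries. There were 133 such miRNAs among the 198 names of this kind that the table lists, and 65 had no reads. The whole table holds 1046 names, of which 805 had reads. The comparison group is the 395 names with reads that are numbered below 1000 and carry no star. Numbers were given to miRNAs roughly in the order of their discovery, so a high number marks a miRNA found late. The members ran from miR-1188 to miR-3475, and the highest older number with reads was 881. The members were chosen by their name and selected on the measured read count, through the minimum of 1 read. At that minimum stood 14 members, and the 65 names just outside it had 0 reads.

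A miRNA is an RNA of about the length of the sequences printed below, cut from a hairpin by the enzymes Drosha and Dicer and loaded into an Argonaute protein, where its seed (bases 2 to 8) pairs with target mRNAs. The abundant and conserved miRNAs were named first. Many later names came from deep sequencing of small RNA, and they include hairpins with unusual origins: mirtrons, which are whole short introns released by splicing in place of Drosha cutting, and hairpins that lie in small nucleolar RNAs (snoRNAs) or in the related scaRNAs of Cajal bodies, which guide chemical changes of other RNAs.

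The series sequenced small RNA from 14 tissues of C57BL/6J mice, an inbred laboratory strain: brain, cerebellum, colon, heart, kidney, liver, lung, oesophagus, ovary, pancreas, small intestine, spleen, stomach and uterus. Each tissue is 1 library made from RNA pooled over animals. The labels give no sex, age or treatment, and they name 5 mice for the harvest and 10 for the pool. There are therefore no replicates, no test between tissues was possible, and every interval below is a 95% exact interval that covers counting error only. In bulk tissue, fewer cells of a type and less RNA per cell cannot be told apart.

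Libraries held 622132 reads (pancreas) to 9341000 reads (small intestine), and cerebellum held 1134677. Counts were divided by the total of their library to give reads per 1000000 (RPM). A single read is worth 0.107 RPM in small intestine, 0.881 RPM in cerebellum and 1.61 RPM in pancreas, and a count of 0 allows 3 reads, which is 0.321, 2.64 and 4.82 RPM in these libraries. miR-143 held 98.7% of the reads of the library labelled colon and 87.1% of those of ovary, so all other names lie low there in RPM. Of 15 miRNAs used as checks of the labelled tissue, 14 were highest in the tissue they mark, and the exception was miR-375, a miRNA of endocrine cells, which was highest in the library labelled uterus. The intestinal miR-215 stood at 51092 RPM in the library labelled uterus and at 4.50 RPM in that labelled colon, so results that rest on either are named by the label.

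RefSeq (GRCm38.p6) held a mature sequence for 101 of the 133 members. For 55 the name matched exactly. For 37 RefSeq lists both arms of the hairpin while the table gives a name without an arm, so both arms are printed for those and the table does not say which was counted. All sequences run 5′ to 3′ with the seed in capitals. The first set shows abundant members whose hairpins overlap a snoRNA or scaRNA, together with miR-1843b-5p, the second copy behind the name miR-1843-5p, for which no such overlap was looked up.
miR-1839-5p (chr7:81529919-81529940, + strand): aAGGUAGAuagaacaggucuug
miR-1843a-5p (chr12:80391654-80391674, - strand): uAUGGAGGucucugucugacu
miR-1843b-5p (chr1:159340362-159340382, + strand): aUGGAGGUcucugucugacuu
miR-3068-5p (chr12:87437724-87437747, - strand): uUGGAGUUcaugcaaguucuaacc
miR-3068-3p (chr12:87437685-87437706, - strand): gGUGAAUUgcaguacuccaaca

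The second set shows the members that were high in both brain and cerebellum and low elsewhere, of which miR-1224 is a mirtron.
miR-1224-5p (chr16:20604452-20604472, + strand): gUGAGGACuggggagguggag
miR-1224-3p (chr16:20604516-20604536, + strand): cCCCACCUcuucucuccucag
miR-3099-5p (chr7:6803600-6803620, + strand): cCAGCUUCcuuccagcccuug
miR-3099-3p (chr7:6803638-6803659, + strand): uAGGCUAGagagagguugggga
miR-3475-5p (chrX:140310949-140310970, + strand): aAAUCAUGuacccccacagagg
miR-3475-3p (chrX:140310992-140311012, + strand): uCUGGAGGcacaugguuugaa

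The third set shows members with 1 leading library, and miR-1981, which led in kidney without passing that rule.
miR-3057-5p (chr10:81271610-81271633, + strand): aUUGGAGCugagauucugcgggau
miR-1983 (chr13:21896930-21896950, - strand): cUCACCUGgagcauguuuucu
miR-3095-3p (chr4:58441023-58441045, - strand): uGGACACUggagagagagcuuuu
miR-3093-3p (chr3:88215226-88215247, + strand): uGUGGACAccgugggagguugg
miR-3081-5p (chr16:44558092-44558114, - strand): gACUGGAGcuuggagcggugagc
miR-3081-3p (chr16:44558058-44558080, - strand): uUGCGCUCcgaucucugagcugg
miR-1968-5p (chr8:13189068-13189091, - strand): uGCAGCUGuuaaggaugguggacu
miR-1968-3p (chr8:13189035-13189055, - strand): aCCACCUCugcagcuguuaag
miR-1981-5p (chr1:184822465-184822488, - strand): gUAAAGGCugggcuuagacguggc
miR-1981-3p (chr1:184822409-184822429, - strand): cAUCUAACccuggccuuugac

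Some seeds are also seeds of older miRNAs. Among the 55 members with an exact name match, 4 shared their seed with a mouse miRNA numbered below 1000 or with let-7: miR-1983 with miR-412-3p, miR-1193-5p with miR-379-5p, miR-1193-3p with miR-370-5p, and miR-1961 with let-7a and its relatives. miR-1961 had 1 read, in brain. Of the 37 members with both arms in RefSeq, 5 shared the seed of an arm with an older miRNA. One is the printed miR-3475-5p, with the seed of miR-96-3p, and the others are arms of miR-1943, miR-3102, miR-1947 and miR-1197. The printed 5p sequences of the miR-1843a and miR-1843b copies share a run of 20 of their 21 bases, shifted by a base, so their seeds differ although most of the sequence is the same. The table has only the names miR-1843-5p and miR-1843-3p.

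The members were scarce as a group. Together they held 94212 reads, which is 0.116% of all reads in the table, against 84.8% for the 395 older names. The median over members of the highest RPM in any library was 0.881, and over older names it was 65.8. A level of 10 RPM in some library was reached by 25 of 133 members (18.8%), against 278 of 395 older names (70.4%) and 51.9% of all 805 names with reads. At 100 RPM there were 8 members (6.02%) and 177 older names (44.8%), and at 1000 RPM 1 member and 83 older names. The opposite end held 71 members (53.4%) that stayed under 1 RPM in every library, against 53 older names (13.4%). Fewer than 10 reads in all 14 libraries together were counted for 60 members (45.1%) and 56 older names (14.2%). Because a minimum of 1 read is part of the rule, these shares describe the members and were not tested. The number at 10 RPM depended on the scaling. It was 16 under median-of-ratios size factors, and 50 when each library total left out its 5 most abundant names.

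Breadth followed level. Members had reads in a median of 5 libraries and older names in 12, and 7 members (5.26%) and 128 older names (32.4%) were read in all 14. Within bands of the highest RPM the medians lay near each other. Under 1 RPM both groups had a median of 2 libraries, and from 1 to 10 RPM members had 7 and older names 6. From 10 to 100 RPM the medians were 10 for members and 11 for older names, and at 100 RPM or more 13.5 and 14. Every library held 10 RPM or more of 33 older names, and of no member. The broadest members, miR-1839-5p and miR-1981, reached that level in 13 libraries.

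**Figure D1:**
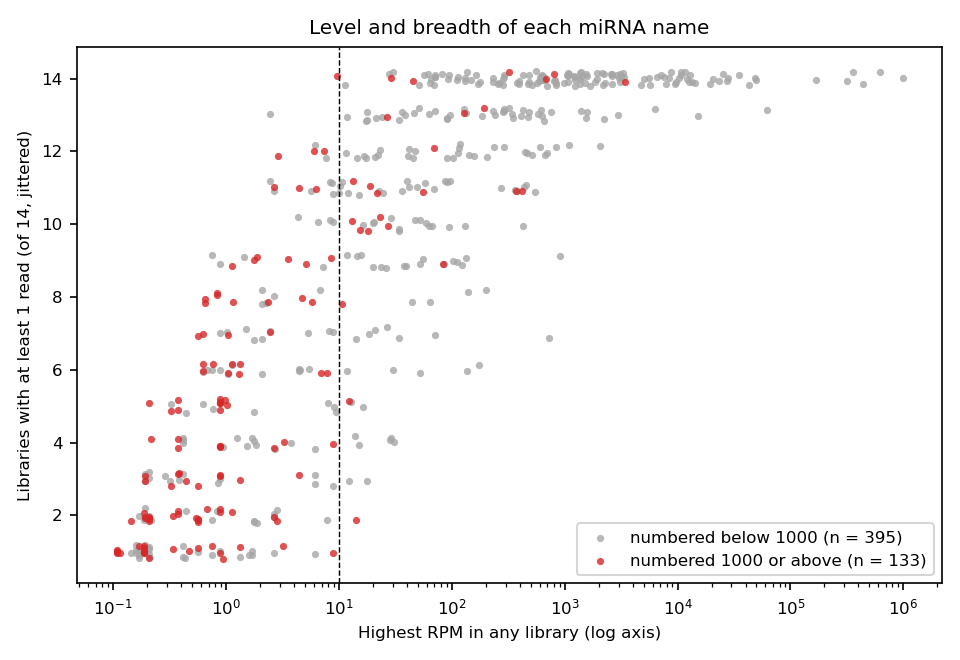
Each point is 1 miRNA name, with its highest RPM in any library on a log axis and the number of libraries with at least 1 read on the vertical axis (jittered); red points are the 133 members, grey points the 395 older names, and the dashed line marks 10 RPM. Most red points lie left of the line, with 25 at or right of it, and they rise along the same band as the grey points.

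The highest numbers were not the least often read. Of 90 names numbered 3000 or above 66 (73.3%) had reads, and 9 reached 10 RPM. Of 65 names from 1900 and below 2000 it was 42 (64.6%) and 7, and of 38 names below 1900 it was 23 (60.5%) and 8. The remaining 5 names, from 2000 and below 3000, gave 2 with reads.

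A few names held most of the reads within the group, as among the older names. miR-1839-5p alone held 50.4% of the members' reads, and the 3 most read members, miR-1839-5p, miR-1981 and miR-3107, held 77.7%. The most read older name held 53.5% of its group's reads. Summed over members, the level was highest in brain with 5214 RPM (0.521% of the library, 0.515–0.528%), followed by cerebellum with 2649 RPM, kidney with 1986 and spleen with 1521. Oesophagus, lung and heart held 1371, 1202 and 1132 RPM, and liver 678. The lowest sums were 166 RPM in pancreas, 45.9 in ovary and 11.4 in the library labelled colon. When miR-143 was left out of the totals, ovary and the library labelled colon held 356 and 878 RPM, and spleen with 3155 and lung with 3093 came after brain with 5566. Without miR-1839-5p the order of the first 2 libraries turned, with 2366 RPM in cerebellum and 1801 in brain.

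**Figure D2:**
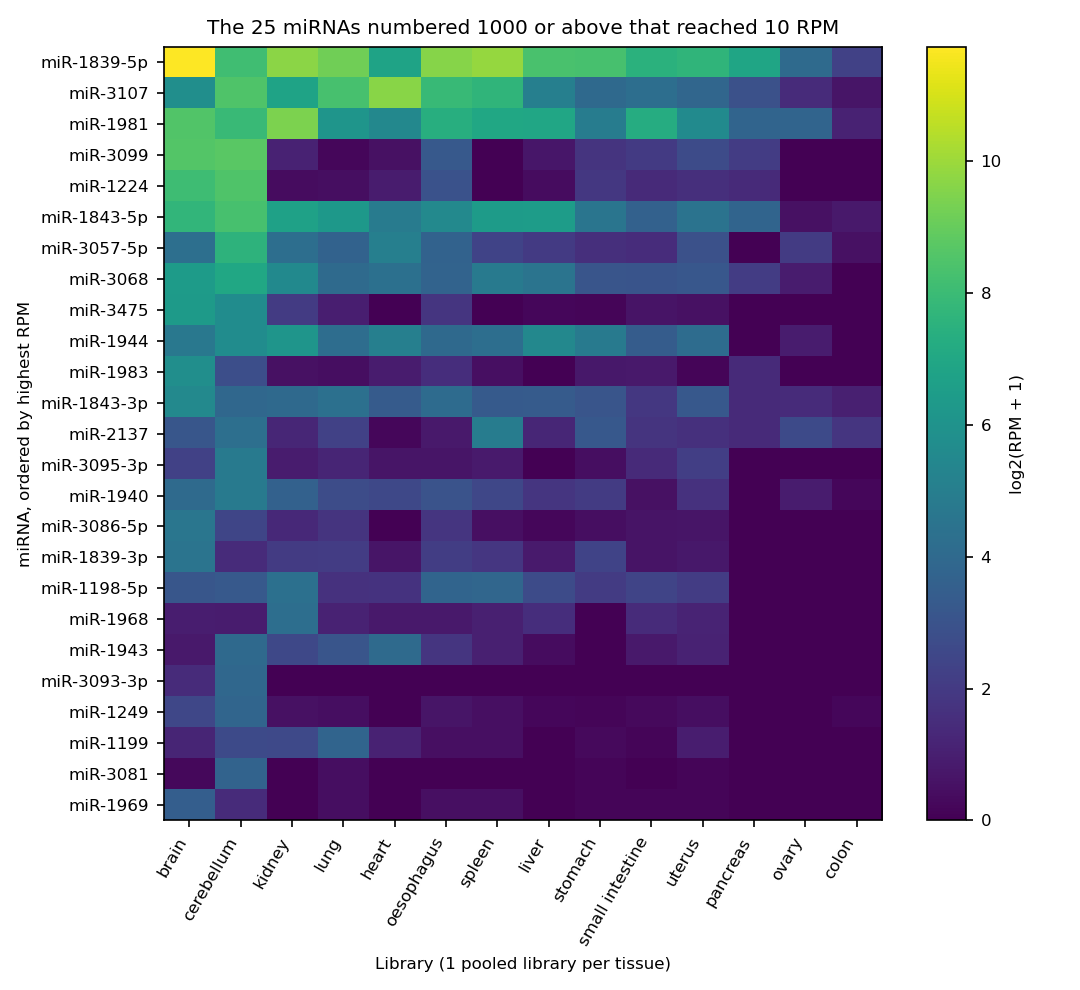
Colour gives log2(RPM + 1) for the 25 members that reached 10 RPM in some library (rows, ordered by their highest RPM) in the 14 libraries (columns, 1 pooled library per tissue). miR-1839-5p and miR-1981 are filled in across nearly all columns, miR-3099, miR-1224 and miR-3475 are bright in the first 2 columns (brain and cerebellum), and the ovary and colon columns are dark for most rows.

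miR-1839-5p was the most abundant member. Its hairpin lies in an exon of the non-coding gene 2900076A07Rik on chromosome 7, and GENCODE M21 (GRCm38) also lists it there as a scaRNA. Levels ran from 3.90 RPM in the library labelled colon over a median of 300.2 to 3413 RPM in brain (3364–3463). Spleen followed with 943 RPM, kidney with 829, oesophagus with 782 and lung with 587. Brain stood 3.62-fold (3.50–3.74) above spleen, and 12.1-fold (10.8–13.5) above cerebellum, where the level was 283 RPM. Brain stayed the highest library under the 3 other scalings, by 1.64-fold to 2.57-fold over the next. The other arm, miR-1839-3p, was counted 252 times against 47455 for the 5p arm, and brain led for it too, with 21.8 RPM. The 5p arm made up 98.7% to 99.8% of both arms in the 11 libraries with reads of both, so the preferred arm was the same in each.

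Hairpins in snoRNAs and scaRNAs gave most of the members' reads. Among the 123 members whose gene was found in GENCODE M21, 9 names from 6 genes overlapped a snoRNA or scaRNA on the same strand (7.32%), against 2 of 385 older names (0.519%), miR-664 and miR-677. At 100 RPM or more these were 3 of 8 members, miR-1839-5p, miR-1843-5p and miR-3068, and 0 of 174 older names. Starred names are outside both groups, and the starred arm miR-664* reached 342 RPM in cerebellum, so the 0 does not hold for all arms of older hairpins. The 9 names held 55309 reads, 58.7% of all reads of the members, of which miR-1839-5p gave most. How the authors' counting treated fragments of the host small RNA is not given in the sources used here.

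miR-1843-5p lies in an intron of Dcaf5, which encodes a substrate receptor of a ubiquitin ligase, where the scaRNA gene Scarna3b overlaps it. The miR-1843b copy lies on chromosome 1, and the table does not separate the copies. It ran from 0.441 RPM in ovary over a median of 37.0 to 320 RPM (288–355) in cerebellum, with brain next at 214 RPM. Kidney held 105 RPM, liver 88.3 and spleen 85.3. The other arm, miR-1843-3p, was highest in brain with 45.5 RPM, 3.23-fold (1.95–5.74) above cerebellum, although under the 3 other scalings its highest value was in the library labelled colon, from 7 reads. The counted share of the arms differed between libraries. The 5p arm made up 95.8% of both in cerebellum, with 16 reads of the 3p arm, 82.5% in brain and 72.0% in the library labelled uterus. Each name covers both copies, so a different mix of copies cannot be told apart from a different use of the arms.

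miR-3068 lies in an intron of Alkbh1, a gene for a nucleic acid demethylase, and GENCODE lists a snoRNA at the same place. Levels ran from 0 reads in the library labelled colon over a median of 14.0 to 128 RPM (108–150) in cerebellum, with 87.3 RPM in brain and 45.9 in kidney. Its starred arm showed a like difference between the neural libraries, since the unstarred arm made up 96.7% of both in cerebellum (145 of 150 reads) and 75.2% in brain. Over the 14 libraries and 418 names at 10 RPM or more, the profile of log2(RPM + 1) most like miR-3068 was that of miR-664* (Pearson's r 0.968), followed by miR-1843-5p (0.963). All correlations of this kind describe 14 libraries of unequal depth, and the names compared share each library and its total.

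miR-3107 and miR-486 were counted nearly alike. miR-486 is a miRNA of muscle and red blood cells from an intron of Ank1, which encodes ankyrin. The miR-3107 gene lies on the opposite strand, on chromosome 8 from 23142573 to 23142662 (GRCm38), in an intron of the non-coding gene Gm15816. RefSeq gives mir-486b as another name of the miR-3107 gene, and both genes cover the same 90 bases. miR-3107 ran from 0.599 RPM in the library labelled colon over a median of 43.9 to 807 RPM (786–828) in heart, and miR-486 stood at 843 RPM there. Cerebellum had 357 RPM of miR-3107 and 378 of miR-486, and lung 323 and 364. Over all libraries there were 12153 reads of miR-3107 and 12981 of miR-486, and miR-3107 made up 47.0% to 49.6% of both in the 11 libraries with over 100 reads of each. Pearson's r of the pair was 0.999. The starred arms differed, with 42 reads of miR-3107* against 1077 of miR-486*. How reads that match both names were assigned is not given in the sources used here, so the level of miR-3107 cannot be told apart from that of miR-486.

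**Figure D3:**
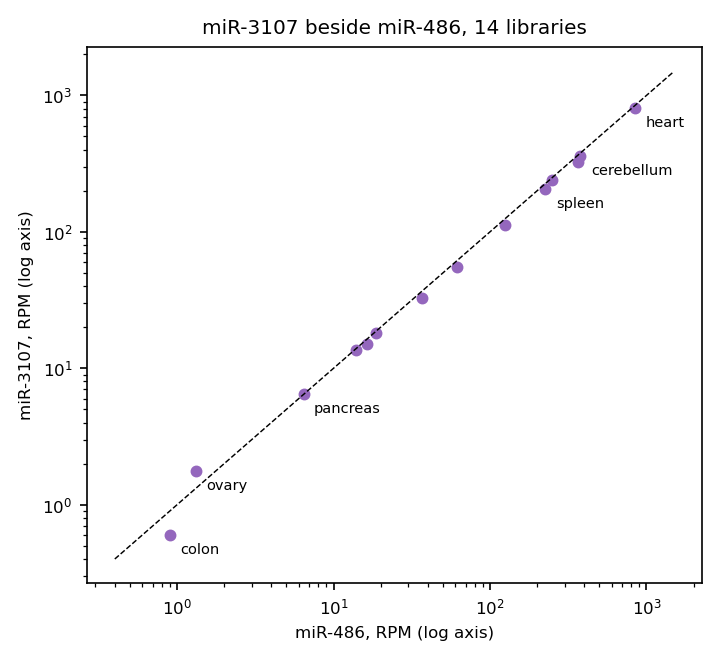
Each of the 14 points is a library, with miR-486 on the horizontal and miR-3107 on the vertical axis, both in RPM on log axes; the dashed line marks equal values. The points follow the line from the library labelled colon (0.899 and 0.599 RPM) to heart (843 and 807 RPM).

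Heart led for miR-3107 under each of the 4 scalings, but by different amounts. With totals it stood 2.26-fold (2.04–2.51) above cerebellum. The ratio to the next library was 5.95 under median-of-ratios size factors, 7.02 when the 5 most abundant names were left out of each total, and 1.24 when miR-143 was left out. Brain had 54.9 RPM, so that cerebellum was 6.50-fold (5.58–7.58) higher than brain.

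miR-3099, miR-1224 and miR-3475 were high in both neural libraries and low in the other 12. They were picked out after their values were seen, as the members with at least 10 RPM in both brain and cerebellum and at least 5 times every other library, with 1 RPM added. This held for 3 members (2.26%) and 39 older names (9.87%), and for 6.46% of all names with reads, and the 3 members met it under all 4 scalings (library totals, totals without miR-143, totals without the 5 names highest in each library, and median-of-ratios factors).

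miR-3099 lies in an intron of Usp29, an imprinted gene for a ubiquitin protease. It reached 422 RPM (385–462) in cerebellum and 386 RPM in brain, a ratio of 1.09 whose interval (0.989–1.21) holds 1. The next library was oesophagus with 8.57 RPM, the median over all 14 was 1.78 RPM, and spleen, ovary and the library labelled colon had no reads.

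miR-1224 is a mirtron in a short intron of Vwa5b2. Cerebellum held 367 RPM (332–404) of it, 1.36-fold (1.22–1.52) above brain at 269 RPM. Oesophagus again came next with 6.66 RPM, and spleen, ovary and the library labelled colon had no reads. Its starred arm had 58 reads, 53 of them in brain. The profiles of miR-3099 and miR-1224 were the most like each other among the 418 names (r 0.989), and the older names closest to them were miR-666-5p, with r 0.983 and 0.986, followed by miR-770-3p for miR-3099 (0.970) and miR-433 for miR-1224 (0.985).

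miR-3475 lies between genes on chromosome X. It was higher in brain, at 82.8 RPM (75.2–90.9), than in cerebellum, at 52.0 RPM, by 1.59-fold (1.21–2.13). Kidney came next with 3.14 RPM, and 5 libraries had no reads.

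Tissue-enriched here means a highest value of 10 RPM or more that, after adding 1 RPM to each, is 5 times the next library or more. Of the 133 members 6 were called (4.51%), against 48 of 395 older names (12.2%) and 10.1% of all 805 names with reads. Among names that reach 10 RPM, which all called names must, the members called were 5 of 17 between 10 and 100 RPM (29.4%) and 1 of 8 at 100 RPM or more (12.5%), and the older names 15 of 101 (14.9%) and 33 of 177 (18.6%). Cerebellum held 4 of the 6 and brain and kidney 1 each, and the same split of the called older names is not given here. All but miR-3057-5p reached 10 RPM in 1 library only, so the library of these calls rests partly on the level. In cerebellum these were miR-3095-3p, miR-3093-3p and miR-3081, from 14 to 31 reads. The calls depended on the scaling. Leaving miR-143 out of the totals gave 4 calls, all among the 6, and leaving out the 5 most abundant names gave 8, of which 3 were shared. Under median-of-ratios factors miR-3107 in heart was the 1 member called. Without the cerebellum library there were 7 calls, of which miR-1968 and miR-1983 were shared.

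miR-3057-5p, from an exon of Apba3, was the most abundant of the 6. It reached 193 RPM (168–220) in cerebellum, 5.90-fold (4.88–7.13) above heart at 32.7 RPM, while brain had 18.2 RPM. The median over libraries was 5.28 RPM and pancreas had no reads. Heart stayed second under the other scalings, but the ratio was 4.85 when miR-143 was left out of the totals, 2.24 under median-of-ratios factors and 1.66 when the 5 most abundant names were left out. miR-3095-3p, from an intron of Lpar1, a gene for a lysophosphatidic acid receptor, had 27.3 RPM (18.6–38.8) in cerebellum from 31 reads, 7.26-fold (4.01–13.4) above brain, and at most 3.56 RPM in any non-neural library. It was not called under the 3 other scalings, where the library labelled uterus came second and the ratio was 3.27 to 3.87.

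miR-3093-3p and miR-3081 were low and rested on few reads. miR-3093-3p had 16 reads in cerebellum (14.1 RPM, 8.06–22.9) and 9 in brain (1.69 RPM, 0.774–3.21), and no reads in the other 12 libraries, where the 0 in pancreas allows 4.82 RPM. miR-3081, from an intron of Boc, which encodes a co-receptor for Hedgehog ligands, had 14 reads in cerebellum (12.3 RPM, 6.75–20.7). It had 2 reads in lung and 1 each in brain, stomach and the library labelled uterus. Cerebellum was 65.6-fold above brain for miR-3081, with an interval from 9.98 to 2774.

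Brain led for miR-1983, at 55.3 RPM (49.2–62.0), 8.96-fold (4.30–22.5) above cerebellum at 6.17 RPM, and oesophagus came next with 1.90 RPM. Under median-of-ratios factors it was not called, with brain 4.05-fold above pancreas, where it had 1 read. Its gene lies between genes of GENCODE M21 on chromosome 13, and overlap with nuclear transfer RNA genes was not looked up. In kidney, miR-1968 from an intron of Grtp1 reached 18.2 RPM (15.6–21.2), 9.62-fold (5.37–19.0) above liver at 1.89 RPM. The ratio to the next library was 2.64 under median-of-ratios factors and 4.96 when the 5 most abundant names were left out, and neither is a call. The profile most like miR-1968 was that of miR-187* (r 0.851).

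The 25 leading members were spread to both sides of an equal level in brain and cerebellum. The counting interval of the ratio of brain to cerebellum lay above 1 for 8, below 1 for 14, and held 1 for 3, namely miR-3099, miR-1198-5p and miR-1968. This compares 1 pooled library with another, not the tissues, and several of the 25, such as miR-3093-3p and miR-1969, reached 10 RPM through 1 of these libraries alone, so the counts are a description. On the brain side the ratio was 12.4 (3.35–103) for miR-1839-3p, 5.98 (1.58–50.6) for miR-1969 and 5.25 (2.19–16.5) for miR-3086-5p, which had 23.1 RPM in brain. miR-1969 had 10.5 RPM in brain and at most 1.76 RPM elsewhere. On the cerebellum side it was 19.9 (6.50–81.4) for miR-1943, 10.6 (8.29–13.6) for miR-3057-5p and 2.40 (1.35–4.16) for miR-2137. It was 1.71 (1.09–2.63) for miR-1940, which had 26.4 RPM in cerebellum, and 2.81 (1.38–5.54) for miR-1249, which had 13.2 RPM there and under 1 RPM in every non-neural library. Hairpin GC content differed by top library at 10 RPM or more. The median was 52.9% over 9 members highest in cerebellum and 46.2% over 7 highest in brain. Over the older names highest in these libraries it was 53.3% and 47.4%. Members highest in any other library had the largest median, 60.6% over 7, where the older names had 48.0%. The part of GC content in these differences was not tested.

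**Figure D4:**
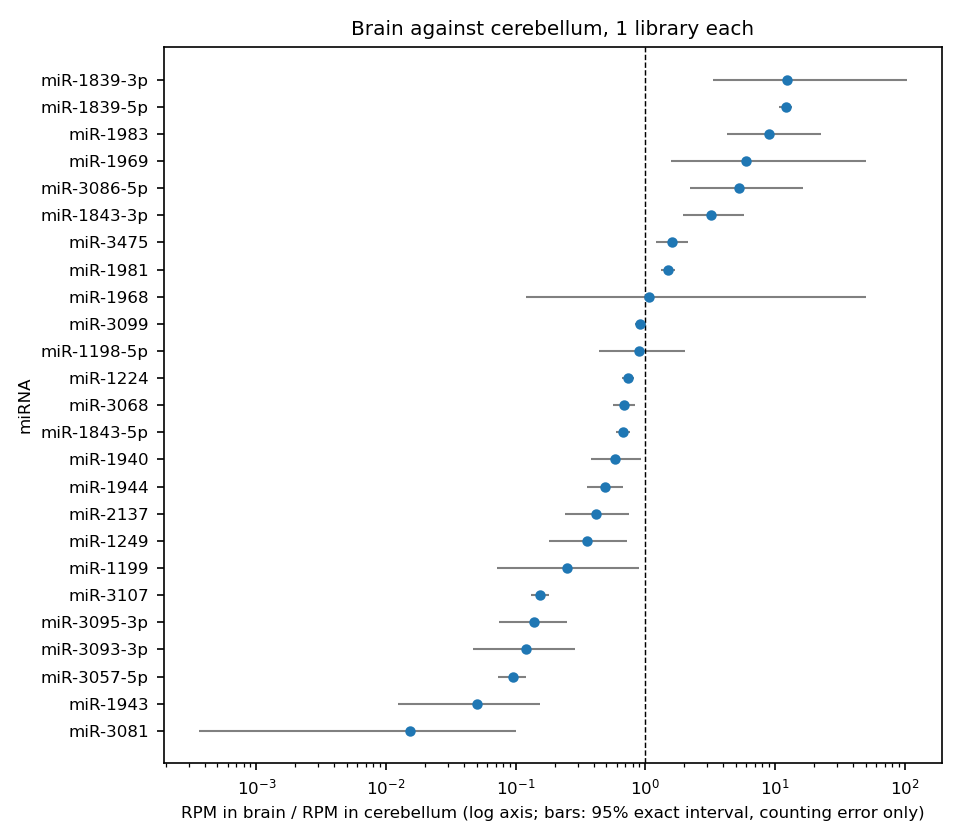
For each of the 25 leading members the point gives the ratio of RPM in brain to RPM in cerebellum on a log axis, and the bar its 95% exact interval, which covers counting error between 1 library each. miR-1839-3p and miR-1839-5p lie furthest to the brain side at 12.4 and 12.1, and miR-3081 furthest to the cerebellum side.

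Outside the nervous system, miR-1981 from an intron of Marc2, which encodes a mitochondrial reductase, was broad with its highest level in kidney. It ran from 1.20 RPM in the library labelled colon over a median of 94.6 to 683 RPM (666–700) in kidney, 1.85-fold (1.76–1.95) above brain at 369 RPM. Cerebellum had 248 RPM, oesophagus 163 and small intestine 151. Kidney led under all 4 scalings. miR-1944 was level across tissues by comparison, with 69.0 RPM in kidney, 51.1 in cerebellum and 43.0 in liver. Liver led under median-of-ratios factors, and heart when the 5 most abundant names were left out of the totals. miR-1198-5p, from an intron of Gripap1, had 18.8 RPM in kidney and 13.6 in spleen, and spleen led under the 3 other scalings.

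miR-1943 had 15.4 RPM in heart and 15.0 in cerebellum, a ratio of 1.03 whose interval (0.614–1.83) holds 1. Heart stood 2.71-fold above cerebellum under median-of-ratios factors and 3.67-fold when the 5 most abundant names were left out of the totals. miR-1199 was highest in lung at 13.0 RPM, 2.45-fold (1.08–6.89) above cerebellum. miR-2137 was highest in spleen at 29.0 RPM (24.5–34.3) with totals, 1.57-fold above cerebellum with an interval (0.988–2.61) that holds 1, and highest in the library labelled colon under the 3 other scalings, from 17 reads there.

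By top library, brain and cerebellum led together for 17 of the 25 members at 10 RPM or more (68.0%), against 154 of 278 older names (55.4%) and 57.4% of all names at that level. The shares of members and older names were 62.5% (10 of 16) and 48.4% under median-of-ratios factors. They were 53.3% (16 of 30) and 43.5% when miR-143 was left out of the totals, and 48.0% (24 of 50) and 43.7% when the 5 most abundant names were left out. Cerebellum was highest for 10 members (40.0%) and brain for 7 (28.0%), while among older names these were 23.4% and 32.0%, and among all names at that level 25.6% and 31.8%. Kidney followed with 4, heart with 2 and lung and spleen with 1 each. No member at this level was highest in liver, pancreas, oesophagus, stomach, small intestine, ovary or the libraries labelled colon and uterus. Among the 278 older names oesophagus was highest for 18 (6.47%) and small intestine for 9 (3.24%), shares at which few of 25 members would be highest there. Of the 25 members, 10 reached 10 RPM in 1 library only, which is then their top library by construction. In cerebellum these were miR-3095-3p, miR-3093-3p, miR-1249 and miR-3081, from 14 to 31 reads, and in brain miR-1983, miR-3086-5p, miR-1839-3p and miR-1969. Without the cerebellum library 21 members reached 10 RPM. The shares of members by top library therefore rest partly on the level itself.

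**Figure D5:**
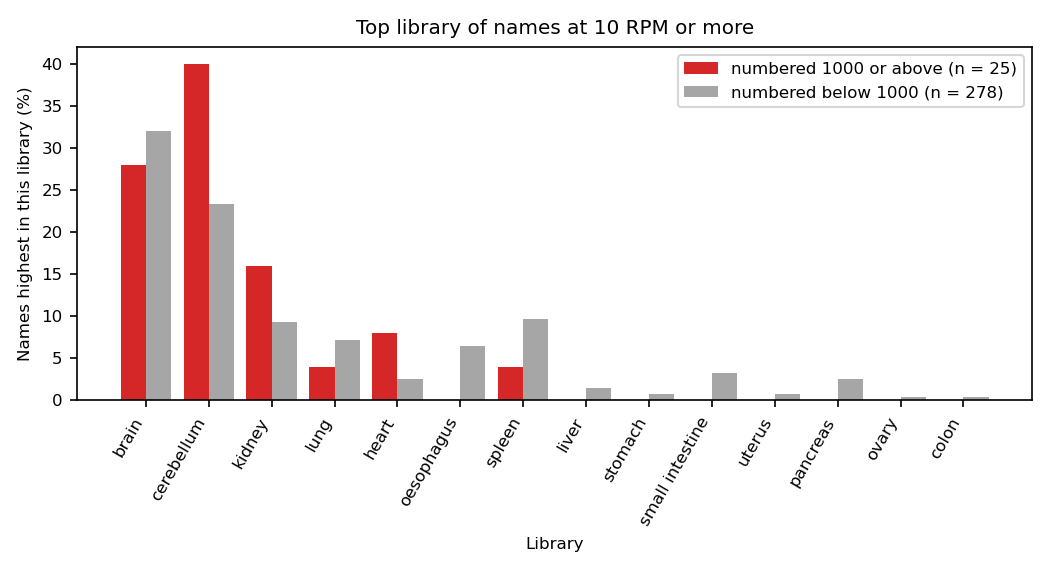
Bars give the percent of names at 10 RPM or more whose highest RPM was in each library, for the 25 members (red) and the 278 older names (grey). The red bar for cerebellum reaches 40.0% against 23.4% for grey, and 8 libraries have no red bar. Some members in the cerebellum and brain bars reached 10 RPM in that library only.

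Over all 133 members the top library was brain for 44 (33.1%, against 29.9% of older names and 32.7% of all names with reads), cerebellum for 30 (22.6%, against 21.5% and 21.1%), spleen for 18 and kidney for 17. Depth enters here, because a single read gives 0.881 RPM in cerebellum and 0.188 RPM in brain. In 13 of the 30 members highest in cerebellum that value was 1 read, and in 7 of the 44 highest in brain. Brain and cerebellum together were highest for 55.6% of members and 51.4% of older names, and the order turned to 40.6% and 42.3% when miR-143 was left out of the totals and to 40.6% and 41.5% when the 5 most abundant names were left out. Among members with at least 10 reads in all, 22 were highest in brain and 19 in cerebellum.

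Reads in 1 library only were found for 22 of all 133 members (16.5%) and 26 of all 395 older names (6.58%). All of these names lay below 10 RPM. On that base they were 22 of 108 members and 26 of 117 older names, so members were not the more frequent there. Of the 22 members, 12 were found in brain, 6 of them with at least 3 reads and 2 with at least 10. The brain library had reads of 75.2% of all members, the largest share, and kidney came next with 57.9%. miR-3085-3p had 47 reads in brain (8.84 RPM) and none elsewhere, and miR-3059 had 17 reads in brain (3.20 RPM) and none elsewhere. A count of 0 allows up to 0.325 RPM in kidney and 0.321 in small intestine, but 2.64 RPM in cerebellum and 4.82 RPM in pancreas. The brain level of miR-3059 lies under the limit in pancreas. Its counting interval for brain over cerebellum starts at 0.881 and so holds 1, while that of miR-3085-3p starts at 2.61. The starred arm miR-3059* had 89 reads in brain (16.7 RPM) and 6 in cerebellum (5.29 RPM). miR-3070a had 7 reads, miR-1197 5 and miR-3072 4, all in brain. The other members of this kind had 3 reads or fewer. Some rows cannot be told apart: miR-1982.1 and miR-1982.2 had the same counts in every library, with 11 reads each.

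Members from the Dlk1-Dio3 region, the imprinted domain whose older miRNAs are abundant in brain, were scarce. The median of their highest RPM was 0.881, as it was over all 133 members, but that value is 1 read in cerebellum. By reads they lay lower: the most read of them, miR-1188, had 12 reads, which was the median over all 133 members. Of 11 names 9 had reads, 47 in all, and the highest level was 2.64 RPM for miR-1188 in cerebellum, from 3 reads. None reached 10 RPM, a level that 18.8% of all members reached. Of the 9, 7 were highest in brain or cerebellum, beside 55.6% of members and 53.8% of all names with reads. The 7 include miR-1188 with 12 reads, miR-3070b-3p with 7 and miR-1197 with 5. miR-1193-5p and miR-1193-3p had 3 and 2 reads, and miR-3070b-5p had 2, so the top library of miR-1193-3p and miR-3070b-5p rests on 1 read. miR-1247, near Dio3, had 5 reads, with 3 in kidney.

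Htr2c, the gene of a serotonin receptor, carries miRNAs in its introns. Its 4 names had 53 reads. miR-1298 was highest in cerebellum at 8.81 RPM from 10 reads. Lung came next with 2.53 RPM from 15 reads, above brain at 0.564 RPM. miR-1264-3p had 1.32 RPM in brain from 7 reads and 1.01 RPM in lung from 6, a ratio whose interval (0.375–4.69) holds 1. miR-1264-5p was highest in brain at 0.564 RPM, and miR-1912 in lung at 0.674 RPM from 4 reads.

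Of the hairpins on the strand opposite an older miRNA gene, miR-3107 is described above. miR-3074, opposite the miR-24 genes, had 17 reads of its 5p arm, 12 of miR-3074-1-3p and 1 of miR-3074-2-3p, and miR-3071 had none.

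The hairpins of members lay in protein-coding genes more often by share, and in non-coding genes less often. In GENCODE M21, 58 of 123 members (47.2%) lay in an intron of a protein-coding gene on the same strand and 30 (24.4%) overlapped an exon of one, against 153 (39.7%) and 30 (7.79%) of 385 older names. In a non-coding gene lay 13 members (10.6%) and 81 older names (21.0%), and between genes 16 members (13.0%) and 104 older names (27.0%). At 10 RPM or more the intronic share was 13 of 23 members (56.5%) and 94 of 272 older names (34.6%). The median GC content of the hairpins was 53.8% for members (quartiles 47.7 and 59.0%) and 47.9% for older names (41.8 and 54.9%). Names that share a hairpin or a cluster are not independent, and no test was made.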

How the data were processed

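Small RNA libraries of 14 mouse tissues were sequenced, 1 pooled library per tissue. The deposited values are whole-number read counts per miRNA name, with no scaling by the authors visible in the file. For trimming, aligner, miRNA release and genome build, the tool or version is not given in the sources used here. The members, lists and rules were chosen with earlier results of these data known. Counts were divided by the library total and multiplied by 1000000 (RPM), with Python 3.11.15, pandas 2.3.3 and scipy 1.17.1. RPM values have exact Poisson intervals and ratios exact conditional binomial intervals, all at 95%. A library total of 622132 to 9341000 reads sets the precision. Values in all libraries were described for the 25 members with the highest RPM, for tissue-enriched members and for members of the Dlk1-Dio3, Htr2c, antisense and mirtron lists; names outside these were chosen after their values were seen. Likeness is Pearson's r of log2(RPM + 1) over 14 libraries. A hairpin counts as exonic where any GENCODE exon of the host overlaps it, and hairpin GC content comes from GENCODE M21 transcripts. The enrichment rule was tested on counts simulated around a common profile. No shift in library composition was simulated, so that test does not cover the dependence of the calls on scaling. Alternatives were other scalings, levels, folds, pseudocounts, read minimums and left-out libraries.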

Additional observations from a re-analysis of the deposited data

Results flagged for a closer look

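The starred arms of members were not part of the group, but 6 of them had at least 10 reads and more reads than the unstarred arm of the same hairpin. In older naming the star marks the arm taken as the less abundant. miR-1298* had 360 reads against 29 for miR-1298, and reached 157 RPM in cerebellum and 26.1 RPM in brain. miR-1247* had 173 reads against 5, with 96 of them in kidney (10.4 RPM). miR-3059* had 96 reads against 17, of which 89 lay in brain. miR-3084* had 78 reads against 6, miR-3103* 44 against 2 and miR-1934* 19 against 10. In all, 29 of 51 starred names numbered 1000 or above had reads, and 11 had at least 10.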

How the results depend on the processing

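Of 52 recomputed counts and medians, 37 stayed within 1.5 times the reported value. Members at 10 RPM or more (25) became 16 with median-of-ratios size factors and 50 when the 5 most abundant names were left out of each total, and by construction 62 at a level of 1 RPM and 8 at 100 RPM. Tissue-enriched members (6) became 1 with median-of-ratios factors, 0 with 10 RPM added, 1 at a minimum of 100 RPM and 10 at a 3-fold limit. Enriched older names (48) became 30 with 10 RPM added, 88 at a 3-fold limit and 92 without the cerebellum library. Requiring 10 reads in all gave 22 members highest in brain (from 44), 19 in cerebellum (from 30) and a median of 8 libraries (from 5), and counting a library only at 3 reads gave a median of 1. Leaving out the libraries labelled colon and uterus was added after the data were seen and changed no count by that much, and the same held without colon, ovary and pancreas. The top library changed for 4, 3 and 4 of the 25 leading members under median-of-ratios factors, without miR-143 and without the 5 most abundant names in the totals, respectively. miR-1843-3p, miR-2137 and miR-1198-5p changed under all of these. Median-of-ratios factors shifted log2 values by 4.21 for the colon-labelled library and −1.75 for kidney. Beyond the counts that change by the rule itself, the cause was not tested. No paired analysis was possible because each tissue has 1 library. Depth limits cerebellum and pancreas most, where 0 reads allow 2.64 and 4.82 RPM.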
